A study of Mus musculus with 4 samples.

Results

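Transcripts of 8 secreted signals made by natural killer (NK) cells were followed in mouse spleen NK cells with and without Tcf7. They comprise the chemokine genes Ccl3, Ccl4, Ccl5, Ccl9 and Xcl1 and the growth factor genes Csf1, Csf2 and Flt3l. They were chosen by name, and all 8 were found among the 26611 gene numbers of the deposited count table. The groups were sequenced, wild type (WT) and Tcf7 knock-out (KO), with 2 mice and so 2 libraries in each, all on the C57BL/6 background and with no treatment named. Cells of both groups were sorted from spleen as TCRbeta-negative cells bearing NK1.1, NKp46, CD11b and KLRG1, a gate for mature NK cells. Tcf7 encodes the transcription factor Tcf-1. How the knock-out allele was made, and the age and sex of the mice, are not given in the sources used here.

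Chemokines are small secreted proteins that draw other leukocytes along a gradient by acting on G protein-coupled receptors. NK cells are known for the CC chemokines Ccl3, Ccl4 and Ccl5, and for Xcl1, whose receptor Xcr1 marks cross-presenting dendritic cells. NK cells also make growth factors of myeloid cells: Flt3l supports dendritic cells, Csf2 encodes GM-CSF, and Csf1 encodes the macrophage growth factor M-CSF. Ccl9 is a mouse CC chemokine that acts through Ccr1 and is best known from macrophages and other myeloid cells.

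The libraries held 28254693 to 40175537 counts. Levels are in CPM, counts scaled to the size of the library and by TMM, a factor that balances libraries on the bulk of their genes, and levels of different genes are compared per kilobase of gene length (RPKM). A count of 0 allows a raw level of up to 0.0747 to 0.106 CPM, which covers counting error only. Tcf7 stood at 89.5 and 79.1 CPM in WT mice and at 11.2 and 25.1 CPM in KO mice libraries. The groups did not overlap (log2 fold change -2.22, SE 0.45), with an edgeR adjusted p of 1.00 and a DESeq2 adjusted p of 0.00216. The sorted NK proteins were present as transcripts, Ncr1 at 1510 to 1732 CPM and Klrb1c at 3595 to 4767 CPM. The T cell gene Cd3e stood at 0.239 to 0.610 CPM, Cd3d at 1.1 to 3.8 CPM and Cd3g at 3.3 to 5.4 CPM. Other T cell receptor transcripts were higher. Trac, the alpha chain constant gene, was at 5.88 to 8.30 CPM in WT and 36.1 to 94.0 CPM in KO libraries (DESeq2 adjusted p = 7.04e-06, edgeR adjusted p = 1.00), and the beta chain gene Trbc2 was at 65.0 to 122 CPM over all 4. Markers of other cells were not level between libraries. Neutrophil and granulocyte precursor markers summed to 2.39 to 42.5 CPM in WT mice and 103 to 467 CPM in KO mice, and erythroid markers to 28.2 to 38.0 and 126 to 208 CPM. B cell markers summed to 180 to 273 and 233 to 538 CPM, T cell markers to 176 to 230 and 164 to 309 CPM, and dendritic cell markers to 26.4 to 36.9 and 27.1 to 35.0 CPM.

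For most of these transcripts the KO and WT libraries overlapped. Each log2 fold change is KO minus WT, from the quasi-likelihood test of edgeR with Benjamini-Hochberg adjustment over 12723 genes. None of the 8 passed an adjusted p of 0.05 (0 of 8; 0% of all genes tested), and none had an unadjusted p under 0.05 (0 of 8, against 2.84% of all genes). DESeq2 called 0 of 8, against 0.558% of all genes. Over all genes edgeR called 0 and had 361 at an unadjusted p under 0.05, limma voom called 0, and DESeq2 called 71. Their median log2 fold change was -0.01, and that of all genes tested was also -0.01, with 4 of the 8 above 0 and 4 below. The groups did not overlap for 2 of the 8, Ccl9 lower and Csf2 higher in KO, against 21.2% of all genes. With 2 libraries in each group, a missing call is no evidence of equal levels, and the 95% intervals below give the sizes that remain possible. An exact permutation of 2 against 2 libraries was not run and could not give a two-sided p under 0.333.

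**Figure D1:**
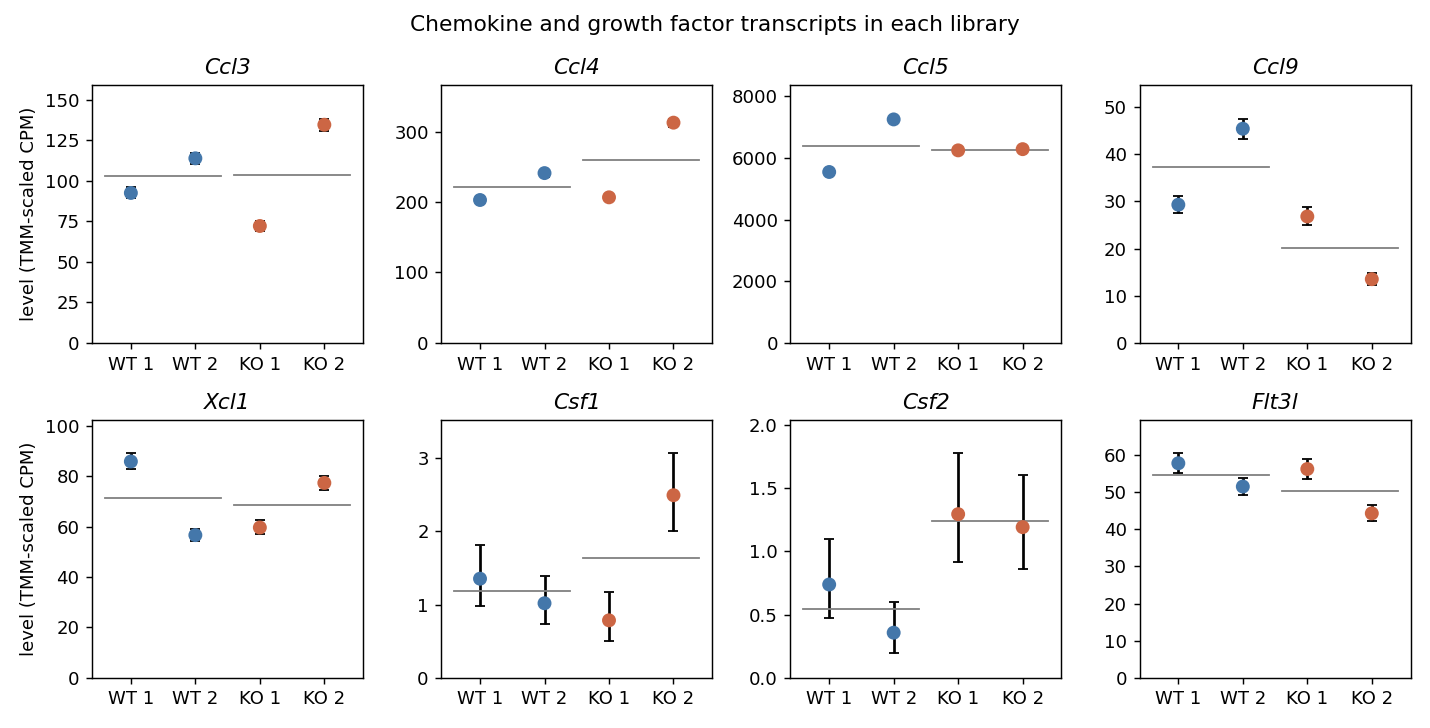
Level of each transcript (TMM-scaled CPM, linear axis from 0, own scale per gene) in the 2 WT (blue) and 2 KO (orange) libraries. Points are libraries, bars are 95% Poisson intervals that cover counting error only, and grey lines are group means. For Ccl9 both KO points lie below both WT points and for Csf2 both lie above, while the other 6 genes overlap.

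Per length, Ccl5 was by far the most abundant of the 8, at 10420 and 13630 RPKM in WT and 11740 and 11820 RPKM in KO, and ranked 2 of 12723 tested genes by its mean. Ccl4 followed at 307 and 365 RPKM in WT and 313 and 474 RPKM in KO. Xcl1 and Ccl3 could not be ordered, since their ranges over the 4 libraries overlapped (113 to 171 and 91.2 to 170 RPKM). Flt3l came next at 41.2 to 53.8 RPKM and Ccl9 at 4.49 to 15.1 RPKM. Csf2 (0.345 to 1.25 RPKM) and Csf1 (0.177 to 0.565 RPKM) overlapped at the bottom, near the limit of what the test keeps. Together the 8 transcripts made up 0.614% and 0.759% of all counts in WT and 0.693% and 0.663% in KO, nearly all of it Ccl5.

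Ccl5, a chemokine for T cells and monocytes that NK cells hold at high level, was the steadiest of the 5 chemokine genes, with the highest library at 1.31 times the lowest. It stood at 5546 and 7252 CPM in WT mice and 6248 and 6287 CPM in KO mice. The KO libraries lay between the WT libraries. The log2 fold change was -0.03 (SE 0.24, 95% interval -0.66 to 0.60; edgeR adjusted p = 1.00). The gene (Entrez gene 20304) lies on mm10 chromosome 11 from 83525778 to 83530518, in a cluster that also holds Ccl9, Ccl6, Ccl3 and Ccl4, 31.2 Mb from Tcf7 on the same chromosome.

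Ccl3 and Ccl4, which encode the inflammatory chemokines MIP-1alpha and MIP-1beta, differed more between mice of a genotype than between genotypes. Ccl3 (Entrez gene 20302; chromosome 11, 83647843 to 83649378) stood at 92.5 and 114 CPM in WT mice and at 72.1 and 135 CPM in KO mice. Both WT values lay between the KO values, and the log2 fold change was 0.00 (SE 0.37, 95% interval -0.97 to 0.98; edgeR adjusted p = 1.00). Ccl4 (Entrez gene 20303) stood at 203 and 241 CPM in WT mice and 207 and 313 CPM in KO mice. KO library 2 was the highest and the other 3 lay close together, with a log2 fold change of 0.23 (SE 0.28, 95% interval -0.53 to 0.98; edgeR adjusted p = 1.00). Without KO library 2 the log2 fold changes were -0.48 for Ccl3 and -0.07 for Ccl4. Per length, Ccl4 exceeded Ccl3 by 2.63 and 2.54 times in WT and by 3.43 and 2.78 times in KO. The neighbouring genes are read from opposite strands. The RefSeq spans of the genes overlap, while GENCODE M21 places Ccl4 at 83662584 to 83664683, clear of Ccl3. The gene length beside the Ccl4 counts was 660 bases, equal to its exonic bases in that GENCODE model. The strand setting of the counting is not given in the sources used here.

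Ccl3 and Ccl4 are known to be induced when NK cells are activated. A list of other genes of that kind was set beside them. Of 33 activation-induced genes (immediate early genes, NF-kappaB targets and the like), all were tested and none passed in edgeR or DESeq2 (2 were higher at an unadjusted p under 0.05), and their median log2 fold change was 0.07. Within each genotype, 23 of the 33 (69.7%) were higher in library 2 than in library 1, against 40.1% of all genes. Of the 8 transcripts followed here, 3 (37.5%) were, a share near that of all genes. They were Ccl3, Ccl4 and, by a log2 difference of only 0.009 in KO, Ccl5. Chosen after their values were seen, the early growth response gene Egr1 stood at 12.0 and 39.8 CPM in WT mice and 8.12 and 50.7 CPM in KO mice, and the nuclear receptor gene Nr4a1 at 21.6 and 33.5 against 13.7 and 47.1 CPM. The 2 genes of the list with the highest CPM, not scaled by length, were Irf8 at 794 and 1019 against 732 and 1172 CPM and Btg2 at 558 and 497 against 543 and 443 CPM. The labels do not say what, if anything, libraries of the same number share, and the part of this variation in the chemokine values was not tested.

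**Figure D2:**
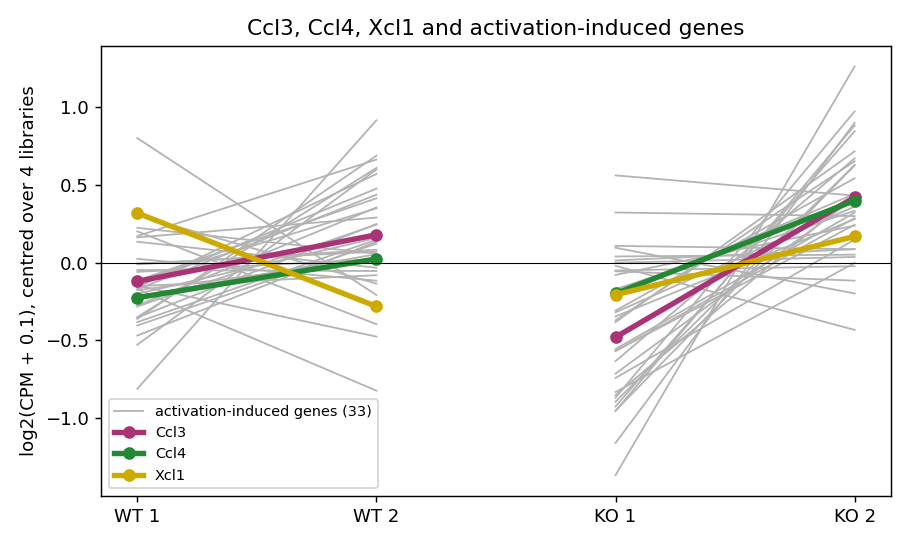
Log2(CPM + 0.1) centred over the 4 libraries for Ccl3, Ccl4, Xcl1 and the 33 activation-induced genes (grey lines); lines join the libraries of one genotype. Ccl3 and Ccl4 are higher in library 2 than in library 1 of both genotypes, as are 23 of the 33 genes and 40.1% of all genes tested. Xcl1 is lower in WT library 2 and higher in KO library 2.

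Xcl1, the C chemokine that acts on dendritic cells bearing Xcr1, was as high per length as Ccl3. Xcl1 (Entrez gene 16963; chromosome 1, 164931644 to 164935522) stood at 85.9 and 56.6 CPM in WT mice and at 59.6 and 77.4 CPM in KO mice. The KO values lay inside the WT range, with a log2 fold change of -0.06 (SE 0.30, 95% interval -0.87 to 0.75; edgeR adjusted p = 1.00). Unlike Ccl3 and Ccl4, it was not higher in library 2 of both genotypes.

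Ccl9 had the largest fold difference among the 5 chemokine genes followed here, with both KO libraries under both WT libraries. Ccl9 (Entrez gene 20308; chromosome 11, 83572917 to 83578636) stood at 29.3 and 45.4 CPM in WT (37.3 ± 11.4, SD, n = 2) and at 26.8 and 13.5 CPM in KO mice (20.2 ± 9.40, SD, n = 2). KO library 1 lay just under WT library 1, and KO library 2 lay far below the rest. The 95% Poisson interval of KO library 1 reached up to 28.7 CPM and that of WT library 1 down to 27.5 CPM, so the order of that pair is within counting error. The log2 fold change was -0.89 (SE 0.44, 95% interval -2.07 to 0.29; edgeR unadjusted p = 0.107, adjusted p = 1.00). Of all tested genes, 11.6% had both KO libraries below both WT libraries. The size of the difference rested on single libraries: the log2 fold change was -0.45 without KO library 2, -0.52 without WT library 2 and -1.47 without KO library 1, where the edgeR adjusted p was 0.588.

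Because Ccl9 is also a product of macrophages, it was set beside macrophage genes. Its neighbour in the cluster, Ccl6, is a related myeloid chemokine. Ccl6 stood at 12.0 and 2.32 CPM in WT mice and 27.4 and 2.14 CPM in KO mice. The myeloid lysozyme gene Lyz2 stood at 92.7 and 3.31 against 258 and 18.6 CPM. Both were high in library 1 of each genotype. The 15 monocyte and macrophage markers summed to 1610 to 2176 CPM in WT mice and 1242 to 1867 CPM in KO mice, mostly from Ly6c2 and Ccr2, and none was at 0. Without these 2 genes, a choice made after the values were seen, the other 13 summed to 165 and 50.2 CPM in WT mice and 392 and 57.6 CPM in KO mice. Lyz2 alone gave 92.7 of the 165 CPM in WT library 1 and 258 of the 392 CPM in KO library 1. Neutrophil and granulocyte precursor markers were also higher in library 1, at 42.5 and 2.39 CPM in WT mice and 467 and 103 CPM in KO mice. Their part in the Lyz2 values was not tested. WT library 2 had the most Ccl9 and KO library 2 the least. The sum of the 13 was lowest in WT library 2 only with Lyz2 included, and without Lyz2 it was lowest in KO library 2. The part of macrophage RNA in the Ccl9 values was not tested. Per length, Ccl9 exceeded Ccl6 9.35 times in WT library 2 and 3.02 times in KO library 2, while the ratio was 1.17 in WT library 1 and 0.467 in KO library 1. In bulk samples, fewer cells with a transcript and less of it per cell cannot be told apart.

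**Figure D3:**
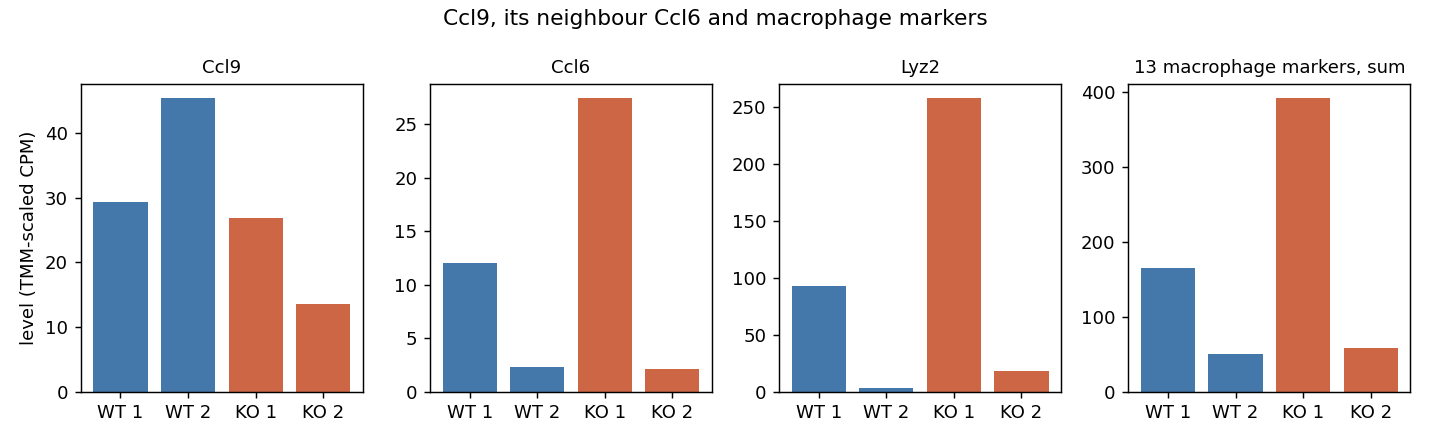
Levels (TMM-scaled CPM, linear axes from 0) of Ccl9, its neighbour Ccl6, the lysozyme gene Lyz2 and the sum of 13 monocyte and macrophage markers in each WT (blue) and KO (orange) library. Ccl9 peaks in WT library 2 at 45.4 CPM and is lowest in KO library 2 at 13.5 CPM. Ccl6, Lyz2 and the sum, which includes Lyz2, are higher in library 1 than in library 2 of each genotype.

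The promoters of 6 of the 8 genes were found in a RefSeq table of GRCm38.p6, all but Ccl4 and Ccl5. The 250 bases before each RefSeq start were searched on both strands for 3 short patterns. They were the core of the site that Tcf and Lef factors bind (CTTTGA), the TATA box (TATAAA) and a T-box half-site (GGTGTGA), a pattern of the NK cell factors T-bet and Eomes. They occur in 13.8%, 12.4% and 3.33% of all 32851 such windows. The Tcf/Lef core was found in 1 of the 6, that of Csf1, the TATA box letters in 1, that of Ccl9, and the T-box half-site in 1, that of Xcl1. Those shown are Ccl9, as the one of the 5 chemokine genes with the largest difference, and Csf1, as the one window with the Tcf/Lef core. They run 5′ to 3′ on the gene's strand (minus for both), at chr11:83578637-83578886 and chr3:107760470-107760719. Capitals mark CTTTGA in Csf1 and, in Ccl9, TATA box letters, first a match on the opposite strand alone and then overlapping matches on both strands. A match describes these letters and does not show binding. For Csf2, on the minus strand, the RefSeq start is at 54249899 and the GENCODE M21 start at 54249667. Its window thus lies further upstream of the GENCODE start.
Ccl9: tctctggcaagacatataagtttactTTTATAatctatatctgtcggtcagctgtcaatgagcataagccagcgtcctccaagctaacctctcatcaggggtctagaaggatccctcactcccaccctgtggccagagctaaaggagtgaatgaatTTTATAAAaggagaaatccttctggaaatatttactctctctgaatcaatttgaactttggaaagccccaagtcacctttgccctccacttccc
Csf1: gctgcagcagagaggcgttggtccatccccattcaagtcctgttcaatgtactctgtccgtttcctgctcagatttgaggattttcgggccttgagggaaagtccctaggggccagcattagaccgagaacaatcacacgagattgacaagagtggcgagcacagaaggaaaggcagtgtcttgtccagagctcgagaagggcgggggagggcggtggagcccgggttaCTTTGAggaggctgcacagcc

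Of the growth factors, Flt3l was the only one at more than a trace. Flt3l (Entrez gene 14256; chromosome 7, 45131183 to 45136490) stood at 57.8 and 51.6 CPM in WT mice and at 56.3 and 44.3 CPM in KO mice. The groups overlapped, and KO library 2 was the lowest. The log2 fold change was -0.12 (SE 0.23, 95% interval -0.74 to 0.50; edgeR adjusted p = 1.00), the narrowest interval of the 8. GENCODE M21 lists a second protein-coding model, Gm45713, that shares 856 of the 1847 exonic bases of Flt3l on the same strand. The gene length beside the Flt3l counts was 1075 bases. How reads in the shared stretch were counted is not given in the sources used here.

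Csf2 and Csf1 rested on few counts. Csf2 (Entrez gene 12981; chromosome 11, 54247270 to 54249899) was counted 24 and 14 times in WT and 38 and 43 times in KO, or 0.738 and 0.356 against 1.30 and 1.19 CPM. Both KO libraries lay above both WT libraries, as for 9.64% of all genes. The log2 fold change was 1.19 (SE 0.58, 95% interval -0.35 to 2.72; edgeR unadjusted p = 0.102, adjusted p = 1.00). It was 0.77 without WT library 2 and 1.79 without WT library 1. The 95% Poisson intervals of WT library 1 (0.473 to 1.10 CPM) and KO library 2 (0.863 to 1.61 CPM) overlapped, so that pair was not separable at this depth. Csf2 lies 1.96 Mb from Tcf7. Its neighbour Il3 was counted 0 times in all 4 libraries, and Il4, Il5 and Il13, also cytokine genes of this region, at most 1 time in any library. GENCODE M21 lists an antisense gene, Gm12223, over 96 of the 800 exonic bases of Csf2. The 9 basophil and mast cell markers summed to 4.12 and 1.63 CPM in WT mice and 12.9 and 2.00 CPM in KO mice. The basophil protease genes Mcpt8 and Prss34 were counted 91 and 146 times in KO library 1 and 0 times each in KO library 2. Other markers were present there. Cpa3, with the highest mean CPM of the list, was counted 75 and 55 times in WT and 49 and 55 times in KO. Hdc was counted 30 and 7 times in WT and 48 and 11 times in KO. The part of these markers in the Csf2 values was not tested.

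Csf1 (Entrez gene 12977; chromosome 3, 107741048 to 107760469) was counted 44 and 40 times in WT and 23 and 90 times in KO, or 1.35 and 1.02 against 0.784 and 2.50 CPM. The WT libraries lay between the KO libraries. The log2 fold change was 0.47 (SE 0.69, 95% interval -1.37 to 2.32; edgeR adjusted p = 1.00), and it was -0.56 without KO library 2. Among the genes tested, Csf1 stood at percentile 9.18 and Csf2 at percentile 17.3 by mean RPKM.

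**Figure D4:**
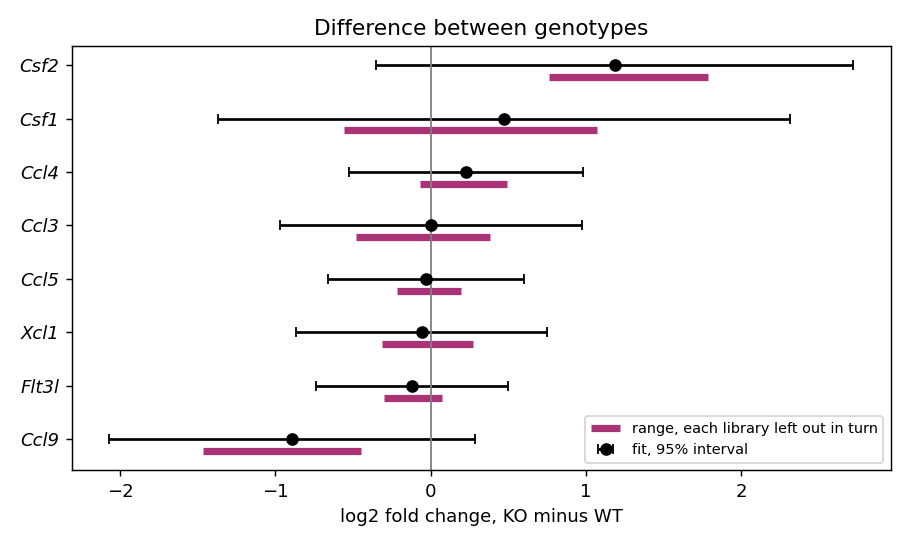
Log2 fold change (KO minus WT) of each transcript with its 95% interval from the edgeR fit (black) and the range of the estimate when each library was left out in turn (purple). All 8 intervals include 0. The left-out range stays on one side of 0 for Ccl9 and Csf2, as follows from groups that do not overlap.

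Most of the receptor genes described here were low in these sorted cells. Of 10 receptor genes, 8 were tested and 0 passed in edgeR or DESeq2 (0 at an unadjusted p under 0.05), with 6 above 0, 2 below and a median log2 fold change of 0.54. Csf1r, a macrophage receptor, stood at 14.0 and 7.64 against 24.1 and 6.46 CPM. The chemokine receptor gene Ccr1 was counted 26 and 0 times in WT and 33 and 18 times in KO, and the dendritic cell receptors Flt3 (13, 1, 28 and 1 counts in WT 1, WT 2, KO 1 and KO 2) and Xcr1 (5, 2, 10 and 2) were rarely counted. The GM-CSF receptor chains Csf2ra and Csf2rb stood at 2.86 to 3.57 CPM and 0.280 to 2.46 CPM. All 8 tested receptors were higher in library 1 than in library 2 of both genotypes, as were all 14 tested neutrophil markers, against 40.4% of all genes.

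Other chemokine genes were mostly counted rarely, apart from Ccl6. Of 29 other chemokine genes only 6 were counted often enough to test, none passed in edgeR or DESeq2 (0 at an unadjusted p under 0.05), and the whole list summed to 6.42 to 19.0 CPM in WT mice and 6.63 to 34.8 CPM in KO mice. Ccl6 made up most of this in the libraries numbered 1, and Ccl27a stood at 1.08 to 2.46 CPM. The inflammatory chemokine genes Ccl2, Ccl7, Cxcl2 and Cxcl3 were counted 0 times in all 4 libraries. Among 29 other cytokines and growth factors, 13 were tested and 0 passed in edgeR or DESeq2, with 5 above 0, 8 below and a median of -0.11. Ifng, the main effector cytokine of NK cells, stood at 60.9 and 44.5 CPM in WT mice and 66.5 and 63.1 CPM in KO mice (log2 fold change 0.30, SE 0.25), and Tnf was counted 2 to 5 times in every library. The 2 genes of the list with the highest CPM, not scaled by length, were Il16, at 315 and 326 against 285 and 278 CPM, and Tgfb1, at 141 and 259 against 110 and 283 CPM. Ltb, which encodes lymphotoxin beta, was the one with an unadjusted p under 0.05 in edgeR (0.0440; adjusted p = 1.00), at 33.6 and 22.8 CPM in WT mice and 15.6 and 7.07 CPM in KO mice, and was singled out after its values were seen.

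By the root mean square difference of centred log2 levels over the 4 libraries, the gene most like Ccl9 among 9288 genes of at least 5 CPM was Cnr2, a cannabinoid receptor gene, at 0.192 on the log2 scale. Cnr2 stood at 14.3 and 20.7 CPM in WT mice and 10.1 and 7.35 CPM in KO mice. Nearest to Ccl3 was Tbc1d2b (0.0159), to Ccl4 Lins1 (0.0236), to Ccl5 Kdm1b (0.0102) and to Flt3l Sumf1 (0.0106). Ccl3 and Ccl4 were each other's nearest among the members (0.169), yet 1103 other genes were nearer to Ccl3 and 882 to Ccl4. With 4 libraries, such likeness is a description of these samples only.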

How the data were processed

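RNA from sorted NK cells of 2 WT and 2 KO mice was sequenced as paired-end TruSeq libraries, per the labels' protocols. The deposited values are whole-number counts per Entrez gene beside a gene length, per the file headers, counted by the authors against mm10 using featureCounts, per the submitters' processing notes. The aligner, its version and the strand setting are not given in the sources used here. All 4 single-library files held the same counts as the series table. Of the gene numbers, 25275 (95.0%) matched a symbol in a RefSeq table of GRCm38.p6, the source of positions.

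Genes were kept with filterByExpr (minimum count 10) and tested with edgeR 4.0.16 (TMM, robust quasi-likelihood, genotype only) in R 4.3.3, adjusted p under 0.05. Each SE is the size of the fold change over the root of F. The code was tested on simulated data. Alternatives were DESeq2 1.42.0, limma 3.58.1 (voom), other scalings and filters, a non-robust fit, the replicate number as a term, and each library left out. DESeq2 with the number as a term was added after seeing the data. The members and gene lists were chosen with earlier results of these data known. Rules for naming genes beyond the 8 covered Tcf7, the 2 most expressed of each pathway list and cell type, and genes fixed by name. They also covered the most similar gene per member. Other genes were named outside these rules with the values known. Among them were Lyz2, Mcpt8, Ncr1, Klrb1c, Cd3e, Trac, Ccl2, Ccl7, Cxcl2, Cxcl3 and those said to be chosen later. Some genes that the naming rule covers are not reported here.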

Additional observations from a re-analysis of the deposited data

How the results depend on the processing

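None of the 8 genes passed the threshold under any of the 13 alternatives run. The lowest adjusted p of any was 0.401, for Csf2 with the replicate block. Ccl9 stayed below 0 in all 13 (-1.47 to -0.45) and Csf2 above 0 in all 12 that kept it (0.77 to 1.79), which for a library left out follows from groups that do not overlap. Csf1 and Csf2 were left untested at 5 CPM in 2 libraries. Estimates near 0 changed sign. Ccl3 was at -0.007 with library size only, -0.055 with limma voom, -0.057 with the replicate block and -0.039 with DESeq2 and the replicate block, and Ccl5 at 0.001 in the last. With each library left out, the ranges were -0.483 to 0.384 for Ccl3, -0.070 to 0.495 for Ccl4, -0.215 to 0.193 for Ccl5, -0.311 to 0.271 for Xcl1, -0.560 to 1.075 for Csf1 and -0.302 to 0.075 for Flt3l. The cause was not tested.

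Over all genes, 0 were called, against 35 with no filter, 71 with DESeq2, 221 with the replicate block, 240 with DESeq2 and the replicate block, and 0 to 53 with a library left out (33 without KO library 1, 53 without KO library 2). Libraries of the same number deviated together (correlation 0.742 across 12723 genes, which are not independent replicates), but with 2 pairs and no label on what a number shares the pairing is not established. With the replicate block 1 of the other cytokines (Ltb, -1.39) and 1 activation-induced gene (Cd69, 0.99) were called, and 2 of each with DESeq2 and the block (Spp1 and Tnfrsf9 added). Tcf7 was called in 4 of the 13 alternatives. Csf1 and Csf2 were counted 14 to 90 times per library, which limits the precision of each value.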

Other observations

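Other genes within 200 kb of the chemokine cluster on chromosome 11 were looked at after the chemokine values were seen. Taf15, an RNA-binding protein gene on one side of the cluster, stood at 57.6 and 117 CPM in WT mice and 41.5 and 119 CPM in KO mice, and Heatr6, on the other side, at 23.5 and 42.4 against 22.4 and 44.6 CPM. Both were higher in library 2 of each genotype, and their edgeR log2 fold changes were -0.12 and 0.02. Heatr9, next to Ccl5, stood at 21.0 and 30.7 CPM in WT mice and 17.1 and 21.4 CPM in KO mice. Wfdc21 was counted rarely in WT (0.123 and 0.0509 CPM) and stood at 2.46 and 0.527 CPM in KO mice (log2 fold change 4.07, SE 1.09; edgeR unadjusted p = 0.0169, adjusted p = 1.00; DESeq2 adjusted p = 0.0802). Neutrophil and granulocyte precursor markers summed to 42.5 and 2.39 CPM in WT mice and 467 and 103 CPM in KO mice, and their part in the Wfdc21 values was not tested. Within 200 kb of Csf2, Csf2 itself was the only gene counted often enough to be tested.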
